A study of Mus musculus with 8 samples.

Results

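The genes described here encode a set of inducible brakes on mitogen-activated protein (MAP) kinase signalling, namely 6 dual-specificity phosphatases (Dusp1, Dusp2, Dusp4, Dusp5, Dusp6 and Dusp10), the Sprouty genes Spry1 and Spry2, and the Sprouty-related genes Spred1 and Spred2. They were chosen by name for their known role, with earlier results of these data known. They are 10 of the 25078 gene rows of the deposited tables. All 10 were measured and passed the filter on low counts, among 12428 genes tested.

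MAP kinases carry signals from the T cell receptor, CD28 and cytokine receptors to the nucleus. They come in the ERK, JNK and p38 classes, and each is switched on by phosphorylation of a threonine and a tyrosine. Dual-specificity phosphatases remove both phosphates, and many of their genes are transcribed in response to the same kinases, so that the pathway limits itself. Sprouty and Spred proteins act further upstream, where they restrain the activation of Ras and Raf, and Spred proteins do so by bringing neurofibromin, a Ras GTPase-activating protein, to the membrane.

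Messenger RNA was sequenced from donor T cells taken from the spleen of recipients on day 6 after hematopoietic cell transplantation (HCT). The donors were C57BL/6 mice, either wild type (WT) or STAT3KO, in which a CD4-Cre transgene deletes floxed Stat3 (Stat3 fl/fl) in T cells before the CD4 and CD8 lineages part, so that it acts in both. Recipients in every group were lethally irradiated WT BALB/c mice that also received T cell-depleted bone marrow of WT C57BL/6 mice, and all T cells compared had therefore been exposed to irradiated, allogeneic hosts. CD4 and CD8 T cells were sorted by the donor marker H-2Kb, the T cell receptor and CD4 or CD8, which gave 4 groups (CD4 and CD8 T cells of either genotype) of 2 libraries each, and each library pooled cells of 3 recipients. The ages of the mice were not given in the sources used here.

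The libraries held between 20171396 and 23282757 counts. Stat3 had between 428 and 436 TMM-scaled CPM (read counts relative to library size) in the 4 WT libraries and between 120 and 143 CPM in the 4 STAT3KO libraries, and the log2 fold change of STAT3KO against WT was -1.63 for CD4 T cells (SE 0.12, edgeR adjusted p = 0.000753) and -1.72 for CD8 T cells (SE 0.12, adjusted p = 0.00536). Counts over the whole gene include reads outside the floxed part. Cd4 averaged 1409 and 1589 CPM in WT and STAT3KO CD4 T cells and 3.82 and 4.90 CPM in the CD8 groups, whereas Cd8a averaged 7.02 and 8.85 CPM in the CD4 groups and 941 and 880 CPM in the CD8 groups, and Cd8b1 moved with Cd8a. The libraries differed by replicate number in another respect. The summed CPM of 8 heat shock genes lay between 2112 and 4991 in the 4 libraries numbered 1 and between 712 and 755 in the 4 numbered 2, while 12 macrophage and dendritic cell genes summed to between 25.6 and 61.0 CPM in the former and between 100.2 and 190 CPM in the latter. In each library 7 or 8 of the 8 heat shock genes and 10 or 11 of the 12 macrophage and dendritic cell genes had a count, and Siglech, which marks plasmacytoid dendritic cells, was at 0 in all 8 libraries.

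The levels of the feedback genes were first set in order on the RPKM scale, which divides by exon length and allows genes to be compared. The nuclear phosphatases Dusp1, Dusp2 and Dusp5 were the most abundant in every library, with medians over the 8 libraries of 201, 178 and 149 RPKM. Dusp6, Dusp4 and Dusp10 followed with medians of 34.3, 33.8 and 23.2 RPKM. Spry1, Spry2, Spred2 and Spred1 had the lowest levels, with medians of 8.03, 7.73, 6.50 and 2.67 RPKM. The lowest library of any phosphatase gene, 15.1 RPKM for Dusp10 in STAT3KO CD8 replicate 1, was above 7 of the 8 Spry1 libraries and above every library of Spry2, Spred1 and Spred2.

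**Figure D1:**
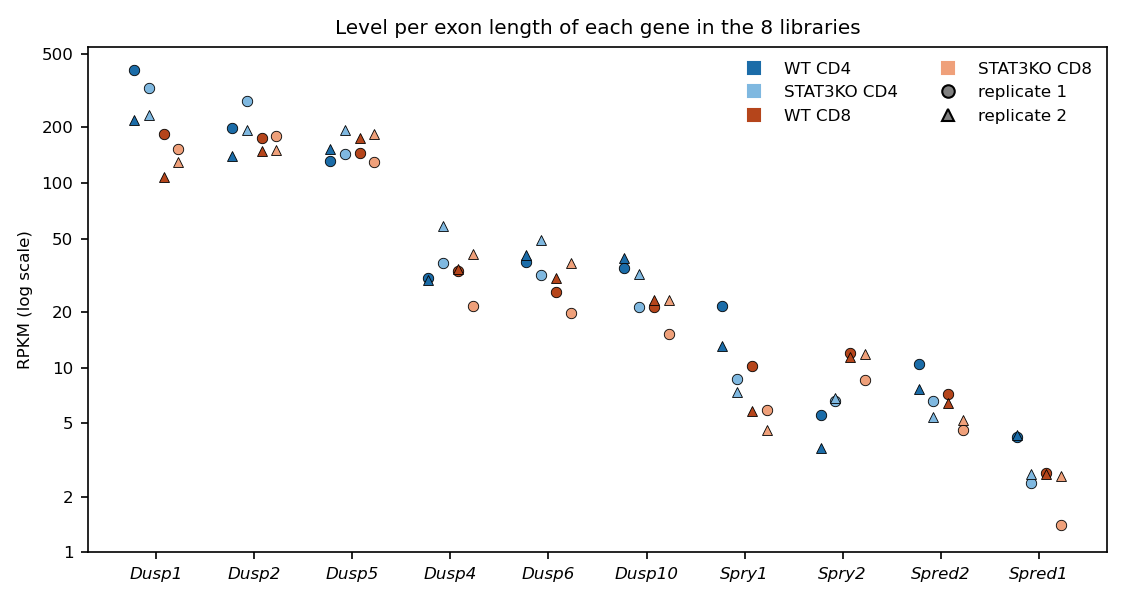
RPKM of each gene (log axis) in the 8 libraries, with color for the group and circles and triangles for replicates 1 and 2. Dusp1, Dusp2 and Dusp5 lie between 108 and 410 RPKM in every library, and Spred1 lies between 1.41 and 4.33 RPKM.

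Within the groups, the order at the top differed. In WT CD4 T cells, Dusp1 led with a mean of 314 RPKM, ahead of Dusp2 at 169 RPKM and Dusp5 at 142 RPKM, and the libraries of Dusp2 and Dusp5 overlapped. In STAT3KO CD4 T cells, Dusp1 (281 RPKM) and Dusp2 (236 RPKM) overlapped, and Dusp5 followed at 169 RPKM. In both CD8 groups, Dusp2, Dusp5 and Dusp1 came in that order of means, 163, 160 and 146 RPKM in WT and 164, 157 and 141 RPKM in STAT3KO CD8 T cells, and neighbors in that order overlapped. At the lower end, Spry1 exceeded Spry2 in both WT CD4 libraries (means 17.4 and 4.60 RPKM) and Spry2 exceeded Spry1 in both WT CD8 libraries (means 11.7 and 8.01 RPKM).

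On the CPM scale, which compares 1 gene across libraries, Spry1 had the widest span of group means, 3.27-fold between WT CD4 and STAT3KO CD8 T cells. Spry2 spanned 2.56-fold, with WT CD8 as the highest and WT CD4 as the lowest group. Dusp1, Spred1, Dusp10 and Spred2 spanned 2.20-, 2.09-, 1.89- and 1.83-fold, each highest in WT CD4 and lowest in STAT3KO CD8 T cells. Dusp4, Dusp2, Dusp6 and Dusp5 spanned 1.61-, 1.46-, 1.44- and 1.21-fold, each highest in STAT3KO CD4 T cells.

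**Figure D2:**
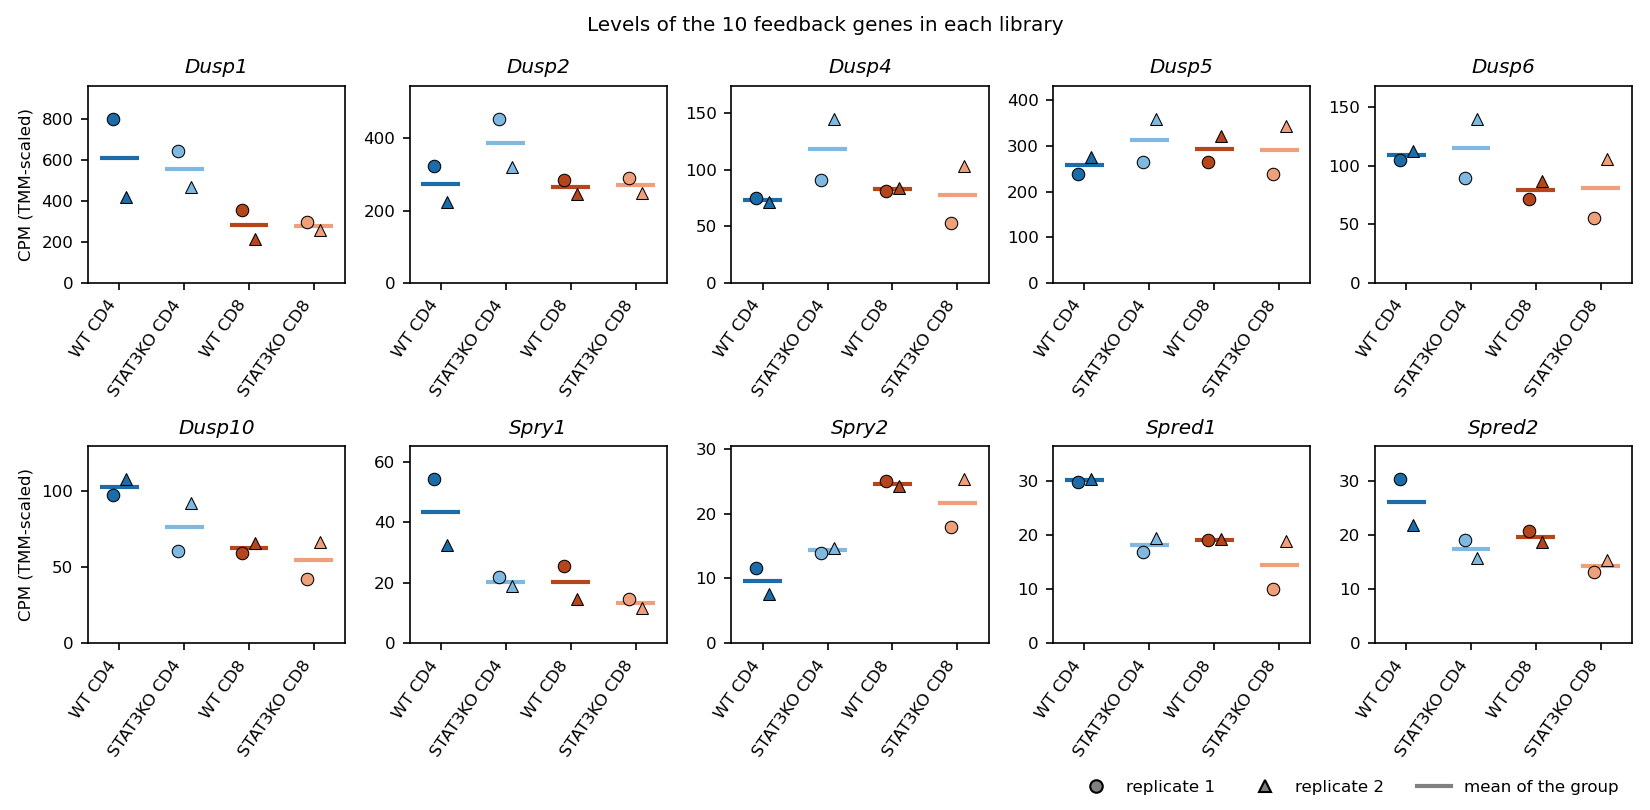
CPM (linear axes from 0, 1 panel per gene) in each library by group, with circles for replicate 1, triangles for replicate 2 and a bar at the mean of the group. Spry1 is highest in WT CD4 (54.3 and 32.4 CPM), Spry2 is highest in WT CD8 (25.03 and 24.3 CPM), and Dusp5 differs least between the groups.

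Dusp1 encodes the nuclear phosphatase MKP-1, which acts on p38 and JNK as well as ERK. It lies at chr17:26505591-26508472 on the minus strand of mm10. WT CD4 T cells had 803 and 421 CPM (replicates 1 and 2), STAT3KO CD4 643 and 468 CPM, WT CD8 357 and 212 CPM, and STAT3KO CD8 299.5 and 257 CPM. All 4 CD4 libraries were above the 4 CD8 libraries, and the WT and STAT3KO ranges overlapped in both cell types. Dusp2, also known as PAC-1, is a nuclear phosphatase of activated lymphocytes (chr2:127336159-127338377, plus strand). Its values were 323 and 225 CPM in WT CD4, 454 and 322 CPM in STAT3KO CD4, 285 and 246 CPM in WT CD8 and 291 and 249 CPM in STAT3KO CD8 T cells. The highest library was STAT3KO CD4 replicate 1, and replicate 2 of STAT3KO CD4 lay at the level of WT CD4 replicate 1.

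Dusp4 (chr8:34807610-34819894, plus strand) encodes the nuclear phosphatase MKP-2. Its level was 74.8 and 71.6 CPM in WT CD4, 91.0 and 145 CPM in STAT3KO CD4, 81.4 and 84.3 CPM in WT CD8 and 52.9 and 103 CPM in STAT3KO CD8 T cells. Both STAT3KO CD4 libraries exceeded both WT CD4 libraries, while the STAT3KO CD8 libraries lay on either side of the WT CD8 libraries. Dusp5 (chr19:53529145-53541809, plus strand) encodes a nuclear phosphatase selective for ERK. WT CD4 T cells had 239 and 276 CPM, STAT3KO CD4 265 and 359 CPM, WT CD8 264 and 322 CPM, and STAT3KO CD8 238 and 344 CPM. The groups overlapped in every comparison of genotype or cell type, and of the gene's exon bases 547 are shared with an antisense gene on the opposite strand, so its counts are uncertain to that extent.

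Dusp6 (chr10:99263231-99267489, plus strand) encodes MKP-3, a cytoplasmic phosphatase selective for ERK. It stood at 105 and 113 CPM in WT CD4, 89.6 and 140.3 CPM in STAT3KO CD4, 71.7 and 87.5 CPM in WT CD8 and 55.5 and 106 CPM in STAT3KO CD8 T cells. The WT values lay within the STAT3KO values in both cell types. Dusp10 (chr1:184034381-184075636, plus strand) encodes MKP-5, which acts on p38 and JNK. Its libraries held 97.4 and 108 CPM in WT CD4, 60.6 and 92.6 CPM in STAT3KO CD4, 59.3 and 65.9 CPM in WT CD8 and 42.6 and 66.4 CPM in STAT3KO CD8 T cells, with both WT CD4 libraries above all others.

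Spry1 (chr3:37639947-37644599, plus strand) and Spry2 (chr14:105891947-105896819, minus strand) encode Sprouty proteins, which are induced by growth factor or antigen receptor signals and inhibit the Ras to ERK route. Spry1 had 54.3 and 32.4 CPM in WT CD4, 21.9 and 18.9 CPM in STAT3KO CD4, 25.5 and 14.7 CPM in WT CD8 and 14.8 and 11.7 CPM in STAT3KO CD8 T cells. Of its exon bases, 710 are shared with an annotated transcript on the opposite strand. Spry2 had 11.6 and 7.61 CPM in WT CD4, 13.96 and 14.8 CPM in STAT3KO CD4, 25.03 and 24.3 CPM in WT CD8 and 18.0 and 25.4 CPM in STAT3KO CD8 T cells. Thus all 4 CD8 libraries exceeded all 4 CD4 libraries for Spry2, and for Spry1 both WT CD4 libraries exceeded all others.

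Spred1 (chr2:117121071-117182277, plus strand) and Spred2 (chr11:19924442-20022597, plus strand) encode the neurofibromin-binding inhibitors of Ras. Spred1 had 29.9 and 30.4 CPM in WT CD4, 17.0 and 19.4 CPM in STAT3KO CD4, 19.1 and 19.2 CPM in WT CD8 and 10.03 and 18.9 CPM in STAT3KO CD8 T cells. Spred2 had 30.4 and 21.9 CPM in WT CD4, 19.2 and 15.9 CPM in STAT3KO CD4, 20.8 and 18.7 CPM in WT CD8 and 13.3 and 15.4 CPM in STAT3KO CD8 T cells. For both genes the STAT3KO libraries lay below the WT libraries in each cell type. All 10 genes are annotated as protein coding.

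The 250 bases before the transcript start were read from RefSeq (GRCm38.p6) for 9 of the 10 genes and searched on both strands for sites of factors that act downstream of MAP kinases or of STAT3. For Spred1 the bases that follow the window matched no GENCODE M21 transcript, so the place of its window is less certain. Dusp1 and Dusp5 are shown because their windows were the only ones of the 9 with a complete cAMP response element (CRE, TGACGTCA) or a CArG box (the serum response element core that SRF binds). Matches are in capitals, 5′ to 3′ along the gene, and include the CRE core TGACG, which the CRE contains, read on either strand.
Dusp1, chr17:26508473-26508722, minus strand: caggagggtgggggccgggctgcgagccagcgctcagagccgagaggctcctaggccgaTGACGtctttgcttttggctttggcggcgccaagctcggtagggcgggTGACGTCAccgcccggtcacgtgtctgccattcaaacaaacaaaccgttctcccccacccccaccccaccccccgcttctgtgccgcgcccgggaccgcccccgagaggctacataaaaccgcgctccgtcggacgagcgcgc
Dusp5, chr19:53528895-53529144, plus strand: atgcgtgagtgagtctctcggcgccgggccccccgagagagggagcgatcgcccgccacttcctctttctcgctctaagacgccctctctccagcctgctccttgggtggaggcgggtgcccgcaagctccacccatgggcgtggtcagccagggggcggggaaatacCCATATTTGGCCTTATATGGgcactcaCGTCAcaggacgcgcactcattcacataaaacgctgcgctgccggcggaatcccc

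In the Dusp1 window the complete CRE began 143 bases before the start, and a separate CRE core lay at position -191. The Dusp5 window had a pair of adjoining CArG boxes at positions -82 and -72 and a CRE core at -55. Spred2 had a CRE core at -51. Complete CREs occurred in 1.55% of all 32851 windows of this length, CArG boxes in 1.47% and CRE cores in 17.8%. None of the 9 windows held the STAT motif TTCNNNGAA (7.02% of all windows), the AP-1 motif TGANTCA (6.75%) or the ETS motif CCGGAA (12.03%). The heat shock motif GAANNTTC, added after the values had been seen, was in none of the 9 and in 6.69% of all windows. A match is a description of the letters and not a site shown to be bound, and no match says only that these letters are not in this window.

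The first comparison asked whether the loss of STAT3 altered these genes in CD4 T cells. Spry1 had the largest difference, with 20.4 ± 2.08 CPM in STAT3KO and 43.4 ± 15.5 CPM in WT CD4 T cells (mean ± SD, n = 2 each). Its log2 fold change was -1.09 (SE 0.31, 95% interval -1.81 to -0.36), and it did not pass the threshold (edgeR quasi-likelihood test, Benjamini-Hochberg adjusted p = 0.0641). Spred1 had a log2 fold change of -0.73 (95% interval -1.31 to -0.14, adjusted p = 0.109) and Spred2 of -0.58 (95% interval -1.01 to -0.15, adjusted p = 0.0898). Values on the other side were those of Dusp4 (0.69, SE 0.31, adjusted p = 0.201), Spry2 (0.58, SE 0.23, adjusted p = 0.154) and Dusp2 (0.50, SE 0.22, adjusted p = 0.191). The log2 fold changes of Dusp1, Dusp5, Dusp6 and Dusp10 lay between -0.42 and 0.28, with adjusted p between 0.32 and 0.903.

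None of the 10 genes was thus called in CD4 T cells by edgeR at an adjusted p under 0.05, against 11.6% of all genes tested. Without adjustment, 4 of the 10 (Spry1, Spry2, Spred1 and Spred2, all of them Sprouty or Spred genes) were under 0.05, against 27.5% of all genes. The STAT3KO and WT libraries did not overlap for 6 of them, with Dusp4 and Spry2 higher and Dusp10, Spry1, Spred1 and Spred2 lower in STAT3KO, against 53.5% of all genes. The median log2 fold change of the 10 was -0.03, beside 0.02 for all genes. With the replicate number added to the fit, edgeR called 6 of the 10 (Dusp2, Dusp4, Dusp10, Spry1, Spred1 and Spred2), against 3747 of the 12428 genes. The number of calls thus depends on that choice, which is described in the section on processing. Without that number, DESeq2 called 2 of the 10, Spry1 (adjusted p = 0.00531) and Spred1 (adjusted p = 0.045), and limma on the RPKM values called none. In edgeR, Spry1 passed without WT CD4 replicate 2 (log2 fold change -1.42, adjusted p = 0.0479) or without WT CD8 replicate 1 or 2 (-1.11 and -1.096, adjusted p = 0.0365 and 0.0372), and Spred1 passed without STAT3KO CD8 replicate 1 or 2 (-0.74 and -0.75, adjusted p = 0.0181 and 0.0173).

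Values within a replicate number were also compared. Spry1 differed between STAT3KO and WT CD4 T cells by -1.31 (log2 CPM) among the libraries numbered 1 and by -0.77 among those numbered 2. The corresponding differences were -0.82 and -0.65 for Spred1, -0.67 and -0.47 for Spred2, 0.49 and 0.51 for Dusp2, 0.28 and 1.02 for Dusp4, and 0.26 and 0.96 for Spry2. Dusp1 (-0.32 and 0.15) and Dusp6 (-0.23 and 0.31) differed in sign between the replicate numbers.

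The same question was asked of CD8 T cells. None of the 10 was called by edgeR (2.07% of all genes were), and DESeq2 and limma also called none. Spred2, at 14.3 ± 1.498 CPM in STAT3KO and 19.7 ± 1.48 CPM in WT CD8 T cells (mean ± SD, n = 2 each), was the 1 gene with an unadjusted p under 0.05, against 19.3% of all genes, and its log2 fold change was -0.46 (95% interval -0.90 to -0.03, adjusted p = 0.232). Spred1 (-0.41, SE 0.25, adjusted p = 0.447) and Spred2 were the 2 genes whose groups did not overlap, both lower in STAT3KO, against 49.7% of all genes. Spry1 had a log2 fold change of -0.60 (SE 0.32, 95% interval -1.34 to 0.14, adjusted p = 0.356). Those of Dusp1, Dusp2, Dusp4, Dusp5 and Dusp6 lay between -0.09 and 0.02, with 95% intervals whose lower ends were between -0.83 and -0.49 and whose upper ends were between 0.49 and 0.76. The median was -0.14 for the 10 genes and -0.01 for all genes. The 8 negative values of the 10 included those of both Sprouty and both Spred genes. Within replicate numbers 1 and 2, the differences were -0.25 and 0.27 for Dusp1, -0.62 and 0.29 for Dusp4, and -0.37 and 0.28 for Dusp6. Dusp5, Dusp10 and Spry2 also differed in sign between the replicate numbers. Spred1 had -0.93 and -0.03, Spry1 -0.79 and -0.33, Spred2 -0.65 and -0.28, and Dusp2 0.03 and 0.01. With the replicate number added to the fit, edgeR called 1 of the 10, Spry1, against 2258 of the 12428 genes.

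Whether the STAT3KO effect differed between CD8 and CD4 T cells was tested directly as an interaction. No gene of the table was called by edgeR (0% of all genes, whereas DESeq2 called 188 and limma on log2(RPKM + 1) 13), and 7.9% had an unadjusted p under 0.05, among them Spry2 as the 1 feedback gene. The log2 fold change of Spry2 was -0.18 in CD8 and 0.58 in CD4 T cells, a difference of -0.76 (95% interval -1.51 to -0.02, edgeR adjusted p = 0.619). The corresponding values were -0.78 for Dusp4 (95% interval -1.79 to 0.24, adjusted p = 0.784), -0.48 for Dusp2 (adjusted p = 0.86) and 0.49 for Spry1 (adjusted p = 0.962). DESeq2, limma and edgeR with the replicate number called none of the 10 genes either, although that edgeR fit called 403 of the 12428 genes. A different response of the 2 cell types was therefore not shown for any of these genes, and the intervals of all but Spred2 reached beyond 1 log2 unit.

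**Figure D3:**
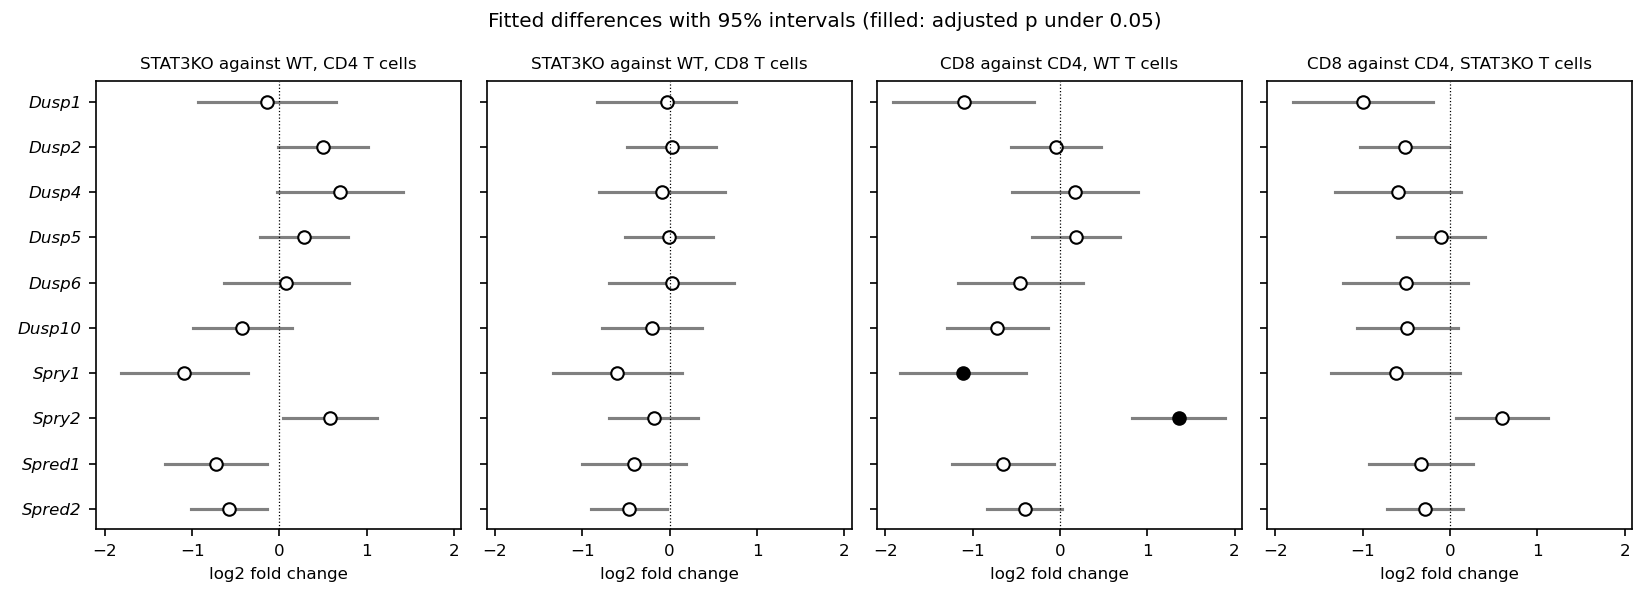
Fitted log2 fold changes of the 10 genes with 95% intervals (lines) in 4 comparisons, where filled points have an edgeR adjusted p under 0.05. The 2 filled points are Spry1 and Spry2 for CD8 against CD4 in WT T cells, on opposite sides of 0.

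Between CD8 and CD4 T cells, edgeR called 2 of the 10 genes in WT and none in STAT3KO T cells, shares no higher than those of all genes. In WT T cells, Spry2 was 2.56-fold higher in CD8 than in CD4 T cells (24.6 ± 0.55 against 9.62 ± 2.84 CPM, log2 fold change 1.36, SE 0.23, edgeR adjusted p = 0.00471). Spry1 was 2.16-fold lower in CD8 T cells (20.1 ± 7.64 against 43.4 ± 15.5 CPM, mean ± SD, n = 2 each), and its log2 fold change was -1.11 (SE 0.31, adjusted p = 0.0378, edgeR). The 2 Sprouty genes thus moved in opposite directions, and they were the only called genes of the 10, against 23.8% of all genes (12.2% higher and 11.6% lower in CD8). Dusp1 (-1.104, SE 0.35, adjusted p = 0.0545), Dusp10 (-0.72, SE 0.25, adjusted p = 0.0748) and Spred1 (-0.65, SE 0.25, adjusted p = 0.102) had lower values in CD8 T cells without passing. Dusp2, Dusp4 and Dusp5 lay between -0.04 and 0.19, and Dusp6 and Spred2 at -0.45 and -0.41.

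For 8 of the 10 genes the WT CD8 and WT CD4 libraries did not overlap, 2 higher (Dusp4 and Spry2) and 6 lower in CD8, against 59.3% of all genes. The median log2 fold change of the 10 was -0.43, beside 0.00 for all genes. Spry2 was called in every alternative and without any 1 library. The call of Spry1 was less stable. It was lost without WT CD4 replicate 1 (-0.70, adjusted p = 0.169), without WT CD8 replicate 2 (-0.77, adjusted p = 0.144), without STAT3KO CD4 replicate 1 or 2 (adjusted p = 0.0582 and 0.0567), without STAT3KO CD8 replicate 1 or 2 (0.0555 and 0.0539), and in a fit of the 4 WT libraries alone (-1.09, adjusted p = 0.0975), which called Dusp10 (0.0226) and Spred1 (0.0285) beside Spry2. With total-count scaling Dusp1 was called as well (0.0446). Without 1 library, calls were gained by Dusp1 (without WT CD4 replicate 2 or WT CD8 replicate 1, adjusted p = 0.0185 and 0.0467) and by Dusp10 and Spred1 (without STAT3KO CD8 replicate 1, 0.0438 and 0.0115, or replicate 2, 0.0466 and 0.0119). DESeq2 called Dusp10 as well (adjusted p = 0.0172), and limma on RPKM called the same 2 Sprouty genes. Without the filter on low counts, edgeR called Dusp1 and Dusp10 beside them. With the replicate number added to the fit, it called 6 (Dusp1, Dusp6, Dusp10, Spry1, Spry2 and Spred1), against 5232 of the 12428 genes.

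In STAT3KO T cells, none of the 10 genes was called between CD8 and CD4 by edgeR, DESeq2 or limma, against 12.5% of all genes by edgeR. Dusp1 had the lowest adjusted p (0.106), with 278 ± 30.2 CPM in CD8 and 555 ± 124 CPM in CD4 T cells (mean ± SD, n = 2 each) and a log2 fold change of -0.997 (SE 0.35). For Spry2 it was 0.59 (SE 0.23, adjusted p = 0.134) and for Spry1 -0.62 (SE 0.32, adjusted p = 0.257), each with the sign it had in WT T cells. Of the 10, 3 had an unadjusted p under 0.05 (Dusp1, Dusp2 and Spry2), against 27.5% of all genes, and 5 did not overlap between the cell types (1 higher and 4 lower in CD8), against 58.3%. Values of 9 genes were negative, Spry2 being the exception, and the median was -0.50 beside 0.00 for all genes. Adding the replicate number to the edgeR fit gave 7 calls (Dusp1, Dusp2, Dusp4, Dusp6, Dusp10, Spry1 and Spry2), against 3689 of the 12428 genes. The other values given here come from fits without it. Without STAT3KO CD8 replicate 2, Spred1 was called (-0.86, adjusted p = 0.036), and in a fit of the 4 STAT3KO libraries alone Dusp1 was (adjusted p = 0.0154).

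The replicate number, which the labels carry in each group without saying what it marks, was examined as well. Replicate 2 was compared with replicate 1, 4 libraries against 4, in a fit that held both the group means and the replicate number. Except where stated, the comparisons of genotype and cell type above come from a fit without the replicate number. Their counts of calls therefore cannot be set against those given here. The 4 libraries numbered 2 had lower Dusp1, Dusp2 and Spry1 and higher Dusp5, Dusp6 and Dusp10, and these 6 of the 10 genes were called, against 23.1% of all genes. The 3 called higher stand beside 10.7% of all genes, and the 3 called lower beside 12.4%.

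Dusp1 fell by 0.59 on the log2 scale (SE 0.10, edgeR adjusted p = 0.00317), with differences of -0.93 in WT CD4, -0.46 in STAT3KO CD4, -0.75 in WT CD8 and -0.22 in STAT3KO CD8 T cells. Spry1 fell by 0.53 (SE 0.11, adjusted p = 0.00667), with -0.75, -0.21, -0.80 and -0.33 in the same order. Dusp2 fell by 0.37 (SE 0.07, adjusted p = 0.00473). These genes were lower in replicate 2 in 4 of 4 groups. Dusp5 rose by 0.36 (SE 0.06, adjusted p = 0.00392), Dusp6 by 0.49 (SE 0.11, adjusted p = 0.0127) and Dusp10 by 0.38 (SE 0.09, adjusted p = 0.0151), each in 4 of 4 groups. Spred1 was also higher in replicate 2 in every group, by between 0.00 and 0.91, without passing (adjusted p = 0.187), so that 7 of the 10 genes had the same direction in every group, against 42.6% of all genes.

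**Figure D4:**
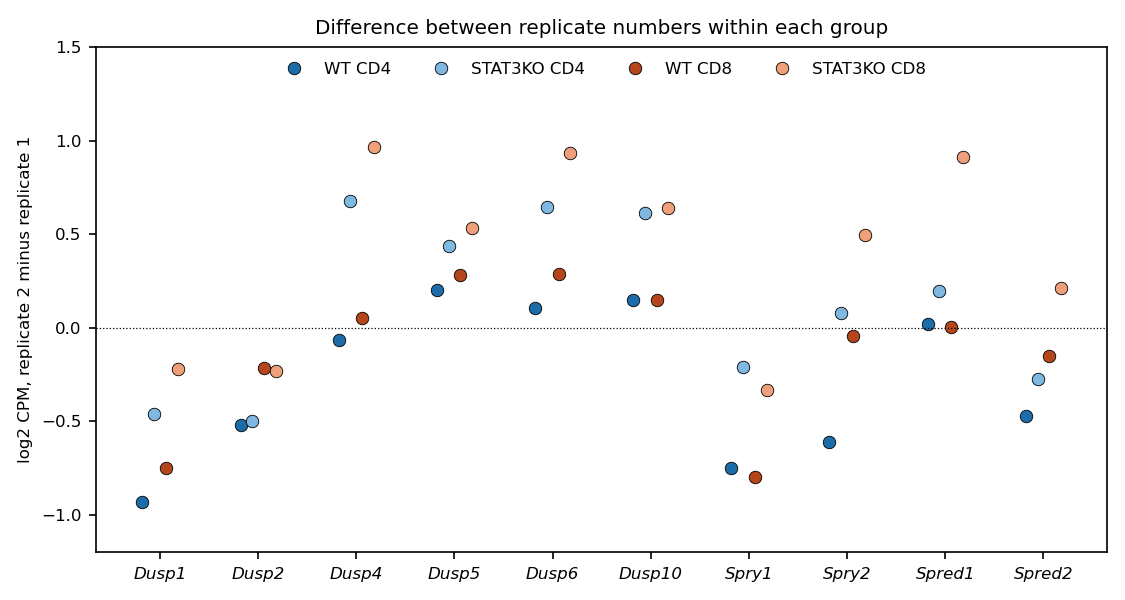
Difference in log2 CPM of replicate 2 minus replicate 1 (vertical axis) for each gene, 1 point per group. The points of Dusp1, Dusp2 and Spry1 are all below 0, and those of Dusp5, Dusp6, Dusp10 and Spred1 are all above 0.

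The differences by replicate number also varied with genotype. Taken with their sign, they were higher in STAT3KO than in WT CD4 T cells for every feedback gene. In CD8 T cells the same held for all but Dusp2 (-0.21 in WT and -0.23 in STAT3KO). For Dusp4, the differences were 0.68 and 0.96 in the STAT3KO CD4 and STAT3KO CD8 groups and -0.06 and 0.05 in the WT groups. For Dusp6 and Dusp10 the STAT3KO groups had differences between 0.61 and 0.93 and the WT groups between 0.10 and 0.29. Those of Dusp1 and Spry1, given above, were falls, which were larger in both WT groups than in both STAT3KO groups. These contrasts were not tested. Without STAT3KO CD4 replicate 1 or 2, Dusp6 (adjusted p = 0.079 and 0.0826) and Dusp10 (0.0942 and 0.0997) were no longer called. Without WT CD4 replicate 1 or 2, Dusp4 was called as well (0.00844 and 0.00942), and without STAT3KO CD8 replicate 1 or 2 Spred2 was (0.0327 and 0.035).

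The heat shock and the macrophage and dendritic cell lists given above moved with the same replicate numbers. The heat shock sum was 4991 and 3367 CPM in replicate 1 of the WT and STAT3KO CD4 groups and 2677 and 2112 CPM in replicate 1 of the WT and STAT3KO CD8 groups, and in the same order 712, 749, 723 and 755 CPM in replicate 2. Within the libraries numbered 1, that order of the groups was also the order of Dusp1 (803, 643, 357 and 299.5 CPM). Within those numbered 2 it was not, since the sums were nearly equal and Dusp1 had 421, 468, 212 and 257 CPM. The macrophage and dendritic cell sum was 25.6, 29.97, 45.1 and 61.0 CPM in replicate 1 and 100.2, 132, 190 and 162 CPM in replicate 2, all of it small beside the T cell list (3251 to 4117 CPM over 6 genes). Other lists gave 1.14 to 2.78 CPM in CD4 and 12.8 to 13.5 CPM in CD8 libraries for B cells, 3.59 to 22.8 CPM for neutrophils and myeloid progenitors, and 0.843 to 7.43 CPM for erythroid cells. Of the B cell list, Cd79b alone averaged 11.9 and 12.6 CPM (TMM-scaled) in WT and STAT3KO CD8 T cells. The globin genes of the erythroid list (Hba-a1, Hba-a2, Hbb-bs and Hbb-bt) had no count in any library. The part of other cells or of the heat shock genes in these results was not tested, and fewer cells of a type and less RNA per cell cannot be told apart in sorted bulk samples.

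**Figure D5:**
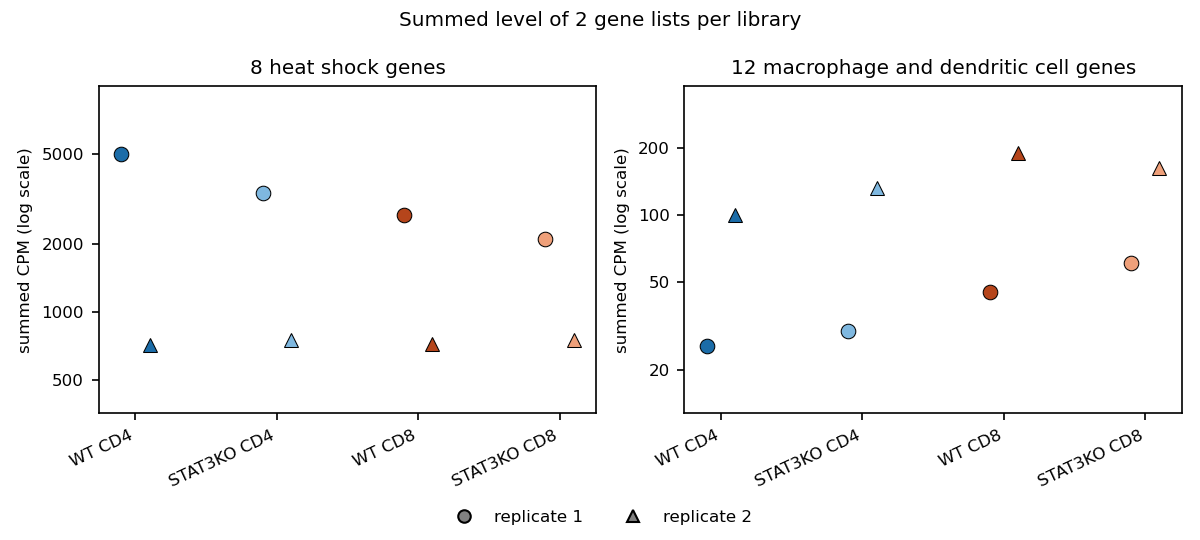
Summed CPM (log axes, scaled by column total) of 8 heat shock genes and of 12 macrophage and dendritic cell genes in each library, with circles for replicate 1 and triangles for replicate 2. The heat shock sums of replicate 1 (2112 to 4991 CPM) all lie above those of replicate 2 (712 to 755 CPM), and the macrophage and dendritic cell sums lie the other way.

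Further genes were taken from fixed lists. Of 12 genes listed by family name as other feedback genes (further dual-specificity phosphatases, Spry3, Spry4 and Spred3), 11 were tested, and Spry3 had no count. The family name alone does not show that each of them, Dusp22 included, is a brake on MAP kinases. In STAT3KO against WT CD4 T cells, 0 were called higher and 2 lower, against 6.54% and 5.08% of all genes. The count was 1 without WT CD4 replicate 1 or 2 or STAT3KO CD8 replicate 1, and 0 without STAT3KO CD4 replicate 1 or 2. Dusp16, a JNK phosphatase, fell by 1.02 on the log2 scale (25.7 and 22.7 CPM in WT and 11.3 and 12.5 CPM in STAT3KO, SE 0.18, edgeR adjusted p = 0.0112). Spred3, the third Spred gene, fell by 2.11 (SE 0.49, adjusted p = 0.033) from low levels of 43 and 39 counts in WT to 12 and 7 counts in STAT3KO CD4 T cells. The list's median was -0.67, beside 0.02 for all genes, and 10 of the 11 values were negative. In CD8 T cells none of the 11 was called by edgeR, DESeq2 or limma, against 2.07% of all genes by edgeR. Of the 11, 1 had an unadjusted p under 0.05, against 19.3% of all genes, and the median was -0.31, beside -0.01 for all genes. Between WT CD8 and WT CD4 T cells, Dusp22 rose by 1.47, and Spred3 and Dusp16 fell by 2.21 and 0.64, against 23.8% of all genes called. These 3 calls became 1 without either WT CD4 library or WT CD8 replicate 1, and 5 without STAT3KO CD4 replicate 2 or in the 4 WT libraries alone. In STAT3KO T cells Dusp22 was the 1 gene called by edgeR (0.93, 12.5% of all genes called), and none was without STAT3KO CD4 replicate 1 or either STAT3KO CD8 library. By replicate number, Dusp7 (log2 fold change -0.21) was the 1 gene called, against 23.1% of all genes. No gene of the list was called by DESeq2, by limma, with total-count scaling or without any 1 STAT3KO library, and 2 were without WT CD4 replicate 1 or 2.

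Of 44 genes of the MAP kinase cascades themselves (Ras and its regulators, the kinases and the ETS factors they act on), all were tested. In CD4 T cells, 1 was called higher and 4 lower in STAT3KO, a share near that of all genes (11.6%). This count fell to 2 in the 4 CD4 libraries alone, to 2 without WT CD4 replicate 1 or STAT3KO CD4 replicate 2, and to 1 without WT CD4 replicate 2 or STAT3KO CD4 replicate 1. Map3k5, the kinase ASK1 upstream of p38 and JNK, fell by 1.15 (183 and 211 CPM in WT and 90.6 and 87.0 CPM in STAT3KO, SE 0.12, edgeR adjusted p = 0.00217). It was also the 1 cascade gene called in CD8 T cells (2.07% of all genes were), where it fell by 0.74 (edgeR adjusted p = 0.0337). No cascade gene was called in CD8 T cells by limma on log2(RPKM + 1), in the 4 CD8 libraries alone, or without any 1 of the STAT3KO CD4, WT CD8 or STAT3KO CD8 libraries (0 called in each). Map2k7 and Mapkapk2 each fell by 0.44 in CD4 T cells. Rasgrp2, an exchange factor for Rap1, rose by 1.22 (171 and 120 CPM in WT and 367 and 311 CPM in STAT3KO, SE 0.22, adjusted p = 0.0125). The median log2 fold change of the 44 was 0.03 for CD4 and -0.01 for CD8 T cells, beside 0.02 and -0.01 for all genes. DESeq2 called 8 cascade genes in CD4 T cells (1 higher and 7 lower) and 4 in CD8 T cells (1 higher and 3 lower). Between WT CD8 and WT CD4 T cells, 2 were higher, with Rasgrp2 at 1.19 and Nras at 0.33, and 12 lower, led by Map3k5 (-1.52), the Raf scaffold Ksr1 (-1.13) and the JNK gene Mapk8 (-1.12), against 23.8% of all genes. The 14 became 6 in the 4 WT libraries alone, 9 without WT CD4 replicate 1 or STAT3KO CD8 replicate 1, and 7 and 8 without WT CD8 replicate 1 and 2. In STAT3KO T cells, 0 were higher and 7 lower, led by Map3k5 (-1.11), Ksr1 (-1.01) and Ets2 (-0.97), against 12.5% of all genes, and the 7 became 3 or 4 without any 1 of the 4 STAT3KO libraries.

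Among 30 genes known as targets of ERK signalling, most of them induced by it, none was called by genotype in either cell type by edgeR, with medians of -0.34 for CD4 and -0.27 for CD8 T cells. Without adjustment, 7 in CD4 and 1 in CD8 T cells were under 0.05, against 27.5% and 19.3% of all genes. DESeq2 called 2 in CD4 T cells, both lower, and 0 in CD8, and limma called 0 in both cell types. In edgeR, 1 was called in CD4 T cells without WT CD4 replicate 2. Between WT CD8 and WT CD4 T cells, 2 were called higher and 7 lower, against 12.2% and 11.6% of all genes, and these 9 became 5 without WT CD8 replicate 2. Egr2 and Egr3, transcription factors induced through the T cell receptor, fell by 2.01 and 2.28, and Maff fell by 2.05, while the costimulatory receptor gene Tnfrsf9 rose by 1.15 and the proapoptotic Bcl2l11 by 0.62. In STAT3KO T cells, Tnfrsf9 rose by 1.01, and Egr3, Egr2 and Junb were 3 of the 4 that fell, by 2.49, 1.87 and 0.77. These 5 calls (12.5% of all genes) became 3 without STAT3KO CD4 replicate 1 or 2 and 1 without STAT3KO CD8 replicate 1. By replicate number, 2 were called higher and 13 lower in replicate 2 (23.1% of all genes were called, 10.7% higher and 12.4% lower). Jun fell by 1.83 (SE 0.09, edgeR adjusted p = 4.65e-06), Klf2 by 1.30 and Fos by 1.19, whereas Ccnd1 rose by 2.09 and Maff by 1.03. The level of Ccnd1 was low, with 2 to 6 counts per library in replicate 1 and 12 to 28 in replicate 2. Of the cascade genes, 1 (Mapk8, 0.23) was called higher and 14 lower in replicate 2, led by Rps6ka1 (-0.44), Hras (-0.37) and Rasgrp2 (-0.36), and these 15 became 9 without WT CD4 replicate 1, 8 without either WT CD8 library and 6 without either STAT3KO CD4 library.

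The 10 genes did not follow 1 common pattern over the 8 libraries. As a description over 8 points that share groups and replicate numbers, log2 CPM of Dusp10 and Spred1 had a Pearson r of 0.913, Spry1 and Spred2 of 0.905, Dusp6 and Dusp10 of 0.866, and Dusp4 and Dusp5 of 0.829. The lowest values were those of Spry1 with Spry2 (-0.672) and Dusp10 with Spry2 (-0.663). The gene most like each one, among the 8835 candidates (mean log2 CPM 3 or more), was Hmces for Dusp1 (r 0.995), Sesn2 for Dusp2 (0.978), Cwc25 for Dusp4 (0.947), Ficd for Dusp5 (0.969) and Vps8 for Dusp6 (0.988). It was Maff for Dusp10 (0.993), Rpl10 for Spry1 (0.975), Pgap3 for Spry2 (0.990), Sestd1 for Spred1 (0.963) and Zcchc4 for Spred2 (0.981). No p is given, since each is the highest of many candidates.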

How the data were processed

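Donor T cells were studied in 8 libraries, grouped by the genotype, cell type and title fields of the labels. The authors aligned single-end reads to mm10 with STAR and counted them per RefSeq gene with HTSeq-count. They deposited raw read counts and RPKM values, which divide by exon length and library size, in tables of 25078 gene rows, of which 17623 had a count. The paper names a stranded library kit, and the labels name a different kit. The strand setting of the counting is not given in the sources used here. Whether reads of overlapping genes on opposite strands were told apart is therefore not known. The growth and treatment fields of the labels describe a cell line and were not used. No column belonged to a sample outside the series.

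From the deposited counts, filterByExpr (minimum count 10) kept 12428 genes. Counts were scaled by TMM, and all 8 libraries entered 1 edgeR 4.0.16 quasi-likelihood fit (R 4.3.3) with a mean per group, so that the groups shared the estimate of spread. Tests were two-sided, and a gene was called at a Benjamini-Hochberg adjusted p under 0.05 over all genes tested. Replicate 2 against replicate 1 came from the same fit with the replicate number added. Standard errors and 95% intervals derive from the F statistic. CPM are TMM-scaled, except in the sums over gene lists, which are scaled by column total. Replicates are separate pools of 3 recipients, and p-values measure the spread between these libraries. Each pair of replicates differed by more than sampling noise.

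The scripts were tested on simulated data. The alternatives were DESeq2 1.42.0, limma 3.58.1 on log2(RPKM + 1) and log2(RPKM + 0.1), RLE or total-count scaling, no filter, only the 4 libraries compared, the replicate block, and each library left out. On 8 libraries with 2 per group, counting error is small at this depth, 20171396 to 23282757 counts per library (3 counts, the limit a count of 0 allows, equal 0.126 to 0.150 CPM, counting error only), and the number of libraries limits the precision.

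The genes named are the 10 feedback genes, Stat3 and the sorting markers, for each pathway list and comparison the called genes with the 3 highest and 3 lowest log2 fold changes, and the gene most like each feedback gene. Siglech, Spry3 and single genes of the B cell, erythroid and acinar lists were named after their values were seen. The members, gene lists and tests were chosen with earlier results of these data known. Promoter sequences are from RefSeq (GRCm38.p6), and gene types and overlaps from GENCODE M21.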

Additional observations from a re-analysis of the deposited data

How the results depend on the processing

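With 2 libraries per group and 8 in all, the calls near the threshold moved with the settings. RLE scaling and limma on either RPKM scale left the number of called feedback genes as it was in every comparison. DESeq2, total-count scaling and the 4 WT libraries alone each called 3 for CD8 against CD4 in WT T cells. For the replicate numbers, total-count scaling and no filter each called 7. For STAT3KO against WT in CD4 T cells (0 called), DESeq2 called 2, total-count scaling 1, no filter 2 and the 4 CD4 libraries alone 1, and leaving out 1 library gave 0 to 1. For CD8 against CD4 in WT T cells (2 called), no filter gave 4 and leaving out 1 library 1 to 3. In STAT3KO T cells (0 called), no filter gave 1, the 4 libraries alone 1, and leaving out 1 library 0 to 1. For the replicate numbers (6 called), leaving out 1 library gave 4 to 7. The interaction gave 0 of the 10 genes under every setting run. Where leaving out 1 library left a group with 1 sample, that sample was assumed to vary like the other groups. Causes of these moves were not tested.

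With the replicate block, 6 genes were called in CD4 T cells (Dusp2, Dusp4, Dusp10, Spry1, Spred1 and Spred2), 1 in CD8 T cells (Spry1, adjusted p = 0.0306), 6 for CD8 against CD4 in WT and 7 in STAT3KO T cells, and 0 for the interaction. In CD4 and CD8 T cells by genotype, it called 3 and 2 of the 11 other feedback genes. Of the 30 ERK targets it called 13 and 6, and of the 44 cascade genes 15 and 9. Beside these stand 3747 and 2258 of all 12428 genes. Between cell types in WT and STAT3KO T cells it called 6 and 3, 16 and 16, and 24 and 17 of these lists. The counts over all genes were 5232 and 3689. For the interaction it called 2 cascade genes, against 403 of all genes. The numbers that open the sample titles form 1 run for the libraries numbered 1 and a separate, later run for those numbered 2. For its T cell receptor sequencing, the paper names 2 batches, each combined from 3 mice. The labels do not say that a replicate number marks a shared animal, day or batch, and each comparison holds only 2 pairs. The block is therefore given as an alternative, and which fit is right was not tested. Across 12428 genes, the differences of replicate 2 minus replicate 1 correlated between every pair of groups, with Pearson r from 0.424 to 0.671 (genes are not independent replicates).

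Signs turned only for values that were not called, of which Spred1 between STAT3KO CD8 and CD4 T cells (-0.33) was the farthest from 0. In CD8 T cells by genotype, Dusp1 was 0.000133 and 0.000431 on the RPKM scales and 0.019 with the replicate block, Dusp2 was -0.017 with total counts, and Dusp6 was -0.021 with total counts, -0.052 and -0.055 on the RPKM scales and -0.025 with the replicate block. By replicate number, Spry2 was -0.0082 in DESeq2 and -0.015 and -0.029 on the RPKM scales. Without 1 library, the ranges that crossed 0 were, in CD8 T cells by genotype, -0.37 to 0.38 for Dusp1, -0.10 to 0.12 for Dusp2, -0.66 to 0.31 for Dusp4, -0.31 to 0.23 for Dusp5, -0.53 to 0.41 for Dusp6, -0.57 to 0.084 for Dusp10 and -0.47 to 0.039 for Spry2. In CD4 T cells they were -0.54 to 0.37 for Dusp1 and -0.28 to 0.34 for Dusp6. For CD8 against CD4 they were -0.30 to 0.22 for Dusp2 in WT and -0.40 to 0.13 for Dusp5 and -0.86 to 0.042 for Spred1 in STAT3KO T cells, and for Spry2 by replicate number -0.17 to 0.17.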

Other observations

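Within the heat shock list, most of the difference between replicate numbers came from the inducible Hsp70 genes, which were picked out after their values were seen. Hspa1a had 1024 and 592 CPM (scaled by column total) in replicate 1 of the WT and STAT3KO CD4 groups, 407 and 271 CPM in replicate 1 of the WT and STAT3KO CD8 groups and, in the same order, 0.292, 3.10, 0.130 and 2.58 CPM in replicate 2. Hspa1b, its near-identical neighbor, whose reads the counting could split or drop, had 583 to 1700 CPM in replicate 1 and 0.536 to 9.34 CPM in replicate 2. The constitutive Hspa8 had 495 to 642 CPM in replicate 1 and 306 to 370 CPM in replicate 2. Among the feedback genes, the same libraries numbered 1 had the higher Dusp1, Dusp2 and Spry1 and the lower Dusp5, Dusp6 and Dusp10.

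A list of 10 genes of pancreatic acinar enzymes summed to 4.40 to 15.3 CPM in 7 libraries and to 78.9 CPM in STAT3KO CD8 replicate 2. The values of the feedback genes in that library are given in the report, and its part in them was not tested.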
